A study of Mus musculus with 13 samples.

Results

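The miR-183, miR-96 and miR-182 cluster was followed in thymic iNKT cells of WT and *Tet2/3* DKO mice through its rows in the precursor and mature count tables. The rows were chosen by name, which gave the hairpins mmu-mir-183, mmu-mir-96 and mmu-mir-182 (3 of 1127 hairpins) and the mature sequences miR-183-5p, miR-183-3p, miR-96-5p, miR-96-3p and miR-182-5p (5 of 1297 mature sequences). iNKT cells, T cells with an invariant TCR that bind lipids, were sorted by FACS from thymi of mice 21 to 25 days old as live TCRβ+ cells that bound the α-galactosylceramide tetramer, after depletion of CD24+ cells. Small RNA was sequenced from 6 WT mice, which were C57BL/6, and from 7 *Tet2/3* DKO mice, in which *Tet2* is deleted in the whole animal (*Tet2*-/-) and floxed *Tet3* (*Tet3* flx/flx) is deleted in T cells by CD4 cre. The study's methods name neither CD4 cre nor floxed alleles for the WT mice, so the deletions and the cre cannot be told apart, and mice of both sexes were used. Each mouse gave 1 library. The study asked whether miRNAs change when TET2 and TET3 are absent from iNKT cells.

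As background, the 3 miRNAs are cut from one primary transcript, first by DROSHA in the nucleus, which releases the hairpins, and then by DICER in the cytoplasm, which releases the arms. The cluster is best known from sensory cells of the retina and inner ear, and in T cells it is known to promote the function of Th17 cells, the helper T cells that make IL-17, by targeting *Foxo1* mRNA. FOXO1 is a transcription factor that restrains the type 17 program, whose lineage factor in Th17 and NKT17 cells is RORγt.

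The arms differ in the bases that find their targets, so their sequences are shown first, from RefSeq on GRCm38.p6, written 5′ to 3′ with the seed (bases 2 to 8) in capitals.
miR-183-5p: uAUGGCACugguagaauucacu
miR-96-5p: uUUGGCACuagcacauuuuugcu
miR-182-5p: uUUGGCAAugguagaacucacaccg
miR-183-3p: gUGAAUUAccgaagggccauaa
miR-96-3p: cAAUCAUGuguagugccaauau
Counted from 1 at the 5′ end, the seeds of miR-183-5p and miR-96-5p differ by A2U (the base of the first-named arm, the position, the base of the other), those of miR-96-5p and miR-182-5p by C8A, and those of miR-183-5p and miR-182-5p by both, so each 5p arm has a seed of its own. Over the whole arm, compared base by base from the 5′ end, the pair with the least alike seeds is the most alike. Over 22 bases, miR-183-5p and miR-182-5p share 18 bases (81.8%), miR-183-5p and miR-96-5p share 13 of 22 (59.1%), and miR-96-5p and miR-182-5p share 12 of 23 (52.2%). Of 1297 mature rows, 1078 had a RefSeq sequence in which a seed could be looked for, and among these 1 other miRNA had the seed of a 5p arm. This is miR-1271-5p, which has the seed of miR-96-5p and was counted 2 times in all WT libraries together and 0 times in *Tet2/3* DKO, where a count of 0 allows up to 3 counts. The hairpins are shown with their arms in capitals, because each one carries 2 arms and the reads differ between them.
mir-183: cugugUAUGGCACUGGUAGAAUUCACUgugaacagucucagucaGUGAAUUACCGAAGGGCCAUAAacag
mir-96: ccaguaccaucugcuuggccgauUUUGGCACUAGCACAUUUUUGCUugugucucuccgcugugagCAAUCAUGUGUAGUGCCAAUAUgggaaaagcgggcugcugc
mir-182: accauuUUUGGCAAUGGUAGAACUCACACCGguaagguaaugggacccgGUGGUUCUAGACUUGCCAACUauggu
The 3p arm of mir-182 was not analysed here.

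All 3 hairpins lie on the minus strand of chromosome 6 in GRCm38.p6, mir-183 at chr6:30169668-30169737, mir-96 at chr6:30169446-30169551 and mir-182 at chr6:30165918-30165992. Transcription meets mir-183 first and mir-96 next, after 116 bases, while mir-182 follows 3453 bases further on, and the 3 span 3820 bases. In GENCODE M21 each hairpin is a gene with 1 exon, and RefSeq places all 3 within the long noncoding RNA gene *Mirc35hg* (chr6:30158640-30174125, minus strand), whose start is 4388 bases before the first base of mir-183. The RefSeq promoter window of *Mirc35hg*, 250 bases before and 50 after its start (chr6:30174076-30174375, minus strand), is shown because TET proteins act on cytosines in CG and the 3 hairpins share this gene. Its CG dinucleotides are in capitals.
*Mirc35hg* promoter window: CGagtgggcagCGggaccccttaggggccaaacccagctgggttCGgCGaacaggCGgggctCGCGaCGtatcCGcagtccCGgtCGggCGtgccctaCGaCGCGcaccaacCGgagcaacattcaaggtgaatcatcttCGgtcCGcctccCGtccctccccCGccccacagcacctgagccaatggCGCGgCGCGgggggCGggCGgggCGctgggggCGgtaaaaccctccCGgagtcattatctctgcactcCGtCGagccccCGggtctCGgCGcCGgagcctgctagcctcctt
The window holds 35 CG, which read the same on both strands. Of 32851 promoter windows of this length, 6.95% hold as many or more, and the median is 7. Neither methylation of this window nor whether the hairpins are transcribed from this start was analysed here.

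Depth limits what can be said of these miRNAs. The mature table holds between 1110852 and 2582057 counts per WT library and between 1837631 and 4361963 per *Tet2/3* DKO library, and the precursor table between 469117 and 1110226 and between 728653 and 1910526. The cluster took between 0.00943% and 0.0173% of the mature counts of a WT library and between 0.0157% and 0.0269% of those of a *Tet2/3* DKO library. Levels are given as CPM, the count of a sequence over the TMM-scaled size of its library, with that size set to 1e6. The difference between genotypes was tested by the quasi-likelihood method of edgeR, with Benjamini-Hochberg adjustment over all 401 mature sequences or 350 hairpins that had enough counts. A fold change is thus relative to the other miRNAs of the library. The TMM factors differed by genotype, from 0.856 to 0.976 in WT and from 0.957 to 1.217 in *Tet2/3* DKO for mature sequences. For hairpins they were from 0.812 to 0.928 and from 1.059 to 1.197. Library size alone moved log2 fold changes up by a median of 0.244 and 0.338. Of the members, 3 mature sequences (miR-96-5p, miR-182-5p and miR-183-5p) and 2 hairpins (mir-183 and mir-182) had enough counts for the edgeR test.

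The arms were far from equally abundant. In WT cells, mean levels were 103.5 CPM for miR-96-5p, 31.3 CPM for miR-182-5p and 11.01 CPM for miR-183-5p, and in *Tet2/3* DKO cells they were 121.8, 55.2 and 20.7 CPM. This order, miR-96-5p over miR-182-5p over miR-183-5p, was that of 13 of 13 libraries. The 3p arms came last, with 0.339 CPM for miR-183-3p and 0.313 CPM for miR-96-3p in WT cells, where neither was the higher one throughout (miR-183-3p was in 3 of 6 WT libraries). In 7 of 7 *Tet2/3* DKO libraries miR-183-3p was the higher one (3.57 against 0.599 CPM). By mean level in CPM, miR-96-5p ranked 160 of 1297 mature sequences in WT cells and 152 in *Tet2/3* DKO cells, and miR-183-5p ranked 315 and 254.

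Among the 3 tested mature members, miR-182-5p and miR-183-5p were higher in *Tet2/3* DKO cells, and the most abundant one, miR-96-5p, did not pass the test. For comparison, 55.6% of all tested mature sequences passed an adjusted p-value of 0.05, 28.2% as higher and 27.4% as lower in *Tet2/3* DKO. In these bulk samples more cells that make a miRNA and more of it per cell cannot be told apart. The study describes, from its authors' earlier work, a skewing of *Tet2/3* DKO iNKT cells to NKT17 with more RORγt. The part of this difference in cell makeup in any genotype difference given here was not tested. For miR-182-5p the lowest, median and highest WT libraries had 18.4, 28.0 and 60.2 CPM (24 to 147 counts), and those of *Tet2/3* DKO had 44.0, 50.9 and 77.4 CPM (121 to 320 counts). WT replicate 3 was the highest of its genotype and lay above 5 of the 7 *Tet2/3* DKO libraries, while the other 5 WT libraries lay below all of them. The means were 31.3 ± 15.5 CPM (SD, n = 6) and 55.2 ± 11.4 CPM (SD, n = 7), which made a log2 fold change of 0.80 (SE 0.252, 95% interval from 0.28 to 1.33, adjusted p = 0.0098 from edgeR). Without WT replicate 3 it was 1.03, and without WT replicate 5 it was 0.62 and just missed the threshold (adjusted p = 0.0505 from edgeR).

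For miR-183-5p the lowest, median and highest levels were 4.08, 11.5 and 14.7 CPM in WT (8 to 36 counts) and 14.9, 20.2 and 33.6 CPM in *Tet2/3* DKO (42 to 139 counts). Every *Tet2/3* DKO library was thus above every WT library, although the nearest of them, *Tet2/3* DKO replicate 3 and WT replicate 3, were close. Among all tested mature sequences, 27.2% had groups that did not overlap, and 12.7% did so with *Tet2/3* DKO higher. The means were 11.01 ± 3.76 CPM (SD, n = 6) and 20.7 ± 6.49 CPM (SD, n = 7), with a log2 fold change of 0.91 (SE 0.307, 95% interval from 0.28 to 1.55, adjusted p = 0.0151 from edgeR). It was 0.66 without WT replicate 5, the lowest library (adjusted p = 0.0591 from edgeR), and 0.73 without *Tet2/3* DKO replicate 6, the highest (adjusted p = 0.0570 from edgeR), both short of the threshold.

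For miR-96-5p the WT libraries had from 80.7 to 125.9 CPM (median 103.0, 127 to 273 counts) and the *Tet2/3* DKO libraries from 94.8 to 152.9 CPM (median 119.4, 266 to 698 counts). The groups overlapped over most of their range, and 3 of the 7 *Tet2/3* DKO libraries were above the highest WT library. The log2 fold change was 0.24 (SE 0.169, 95% interval from -0.11 to 0.59, adjusted p = 0.241 from edgeR), so that a fall to 0.924 of the WT level and a rise of 1.501-fold both lie within its interval. Scaled by library size alone it was 0.49 and past the threshold (adjusted p = 0.0301 from edgeR), but that scaling moved all mature sequences up by 0.244 in the median.

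**Figure D1:**
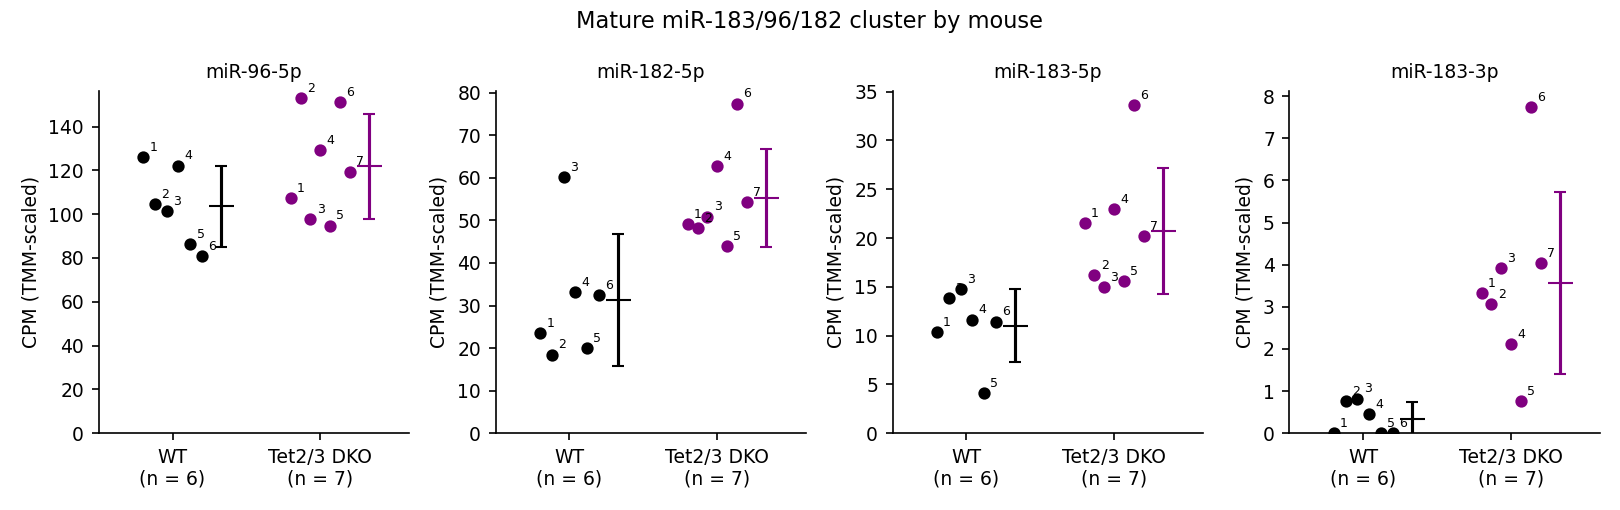
Levels of miR-96-5p, miR-182-5p, miR-183-5p and miR-183-3p in CPM of the TMM-scaled library (y axis, from 0) in WT (black) and *Tet2/3* DKO (purple) libraries. Each point is a mouse with its replicate number, and the bar beside it is the mean ± SD. WT replicate 3 lies among the *Tet2/3* DKO points for miR-182-5p, the groups are apart for miR-183-5p, and they overlap for miR-96-5p.

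The star arm miR-183-3p, the less abundant product of the mir-183 hairpin, was near the limit of detection in WT cells and present in all *Tet2/3* DKO libraries. It was counted 4 times in the 6 WT libraries, with 0 in 3 of them and at most 2, and 92 times in the 7 *Tet2/3* DKO libraries, from 3 to 32. In CPM the WT libraries lay between 0 and 0.819 and the *Tet2/3* DKO libraries between 0.767 and 7.74, so 6 of 7 *Tet2/3* DKO libraries were above every WT library and *Tet2/3* DKO replicate 5 was within the WT range. A single WT library could have missed 3 counts, which is 2.82 CPM in WT replicate 1, the shallowest. It had too few counts for the test across all sequences. In log2(CPM + 0.705) the difference was 1.95 (WT -0.02 ± 0.545 SD, n = 6, and *Tet2/3* DKO 1.93 ± 0.772 SD, n = 7, exact two-sided permutation p = 0.00233). In the fit without a count filter, which called 21.2% of its sequences in either direction, the log2 difference reached 3.21 by edgeR (SE 0.931, with adjusted p = 0.00457), a value that depends on how counts of 0 are handled.

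Because both arms come from one hairpin, the share of miR-183-3p among the counts of both arms does not depend on library scaling. This share was chosen after the values were seen and uses the miR-183-3p counts already tested above. Its p-value is thus a description and not a separate test. It was 4 of 121 counts in WT (3.31%) and 92 of 646 in *Tet2/3* DKO (14.2%). By library it was from 0 to 5.26% in WT and from 4.69% to 20.8% in *Tet2/3* DKO, with a mean of 2.37% ± 2.66 (SD, n = 6) and 14.1% ± 5.73 (SD, n = 7). The difference was 11.7 percentage points (exact two-sided permutation p = 0.00408), and it lay between 10.6 and 13.3 points without each library in turn. WT libraries had 8 to 38 counts on both arms together and *Tet2/3* DKO libraries 53 to 171, so that the share of a WT library rests on few counts.

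The other star arm, miR-96-3p, was counted 2 times in WT, both in replicate 1, and 18 times in *Tet2/3* DKO, with 0 to 7 counts in a library. In log2(CPM + 0.705) the difference was 0.47 (exact two-sided permutation p = 0.224). Without WT replicate 1 every WT library was at 0 counts, and the difference of 0.81 is then set by the prior count and the depth.

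Among precursors, 1 of the 2 tested hairpins, mir-183, was higher in *Tet2/3* DKO cells, where 59.7% of all tested hairpins passed the threshold, 32.6% as higher and 27.1% as lower. The lowest, median and highest levels of mir-183 were 6.91, 26.6 and 45.7 CPM in WT (3 to 43 counts) and 20.3, 39.6 and 76.2 CPM in *Tet2/3* DKO (30 to 154 counts). The groups overlapped, as they did not in 32.0% of tested hairpins (18.0% with *Tet2/3* DKO higher), with 3 of 7 *Tet2/3* DKO libraries above the highest WT library, replicate 4, and 2 WT libraries, replicates 1 and 5, below the lowest *Tet2/3* DKO library. The log2 fold change was 0.89 (SE 0.375, 95% interval from 0.11 to 1.68, adjusted p = 0.0481 from edgeR), and it missed the threshold under RLE scaling, under upper-quartile scaling and in 9 of the 13 fits that left out 1 library.

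For mir-182 the levels were between 2.30 and 27.7 CPM in WT (median 14.3, 1 to 26 counts) and between 11.3 and 45.5 CPM in *Tet2/3* DKO (median 19.2, 14 to 92 counts). *Tet2/3* DKO replicates 4 and 6 were above all WT libraries, and the other 5 lay within the WT range. The log2 fold change of 0.70 (SE 0.457, 95% interval from -0.26 to 1.66) had an adjusted p of 0.193 from edgeR. The mir-96 hairpin was counted 15 times in WT and 45 times in *Tet2/3* DKO, with at most 11 counts in any library, and its difference in log2(CPM + 1.62) was 0.08 (exact two-sided permutation p = 0.847), below 0 with a smaller prior count (-0.07). A change in this hairpin was not detectable at this depth.

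**Figure D2:**
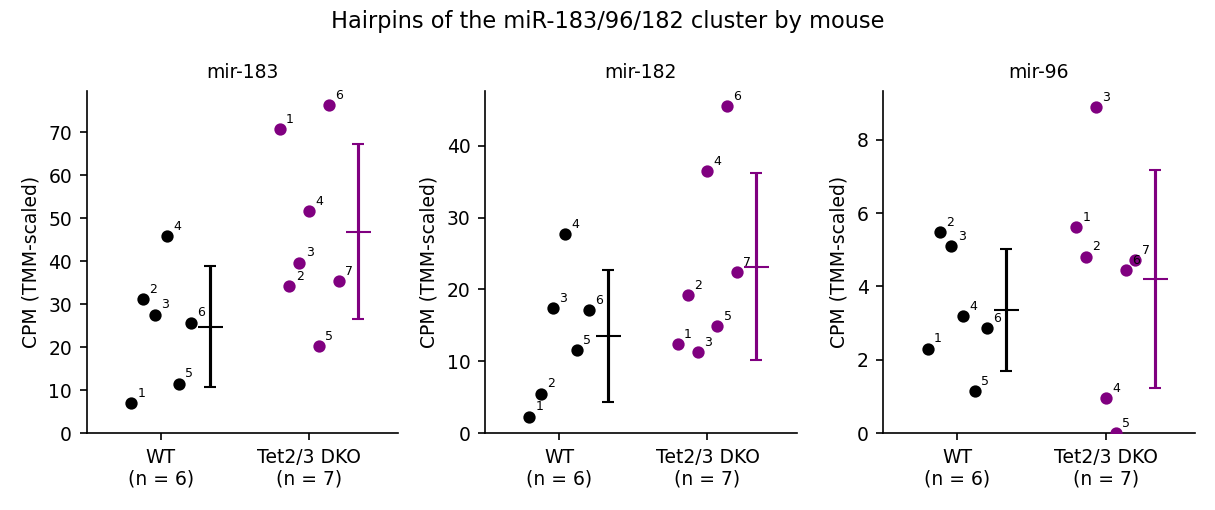
Levels of the hairpins mir-183, mir-182 and mir-96 in CPM of the TMM-scaled library (y axis, from 0) in WT (black) and *Tet2/3* DKO (purple) libraries, with replicate numbers and the mean ± SD. The groups overlap for all 3, and mir-96 stays under 9 CPM in every library.

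The order of the hairpins was not that of the arms. In 13 of 13 libraries mir-183 had at least as many counts as mir-182, and mir-182 at least as many as mir-96. A pair of hairpins had equal counts in WT replicates 1, 2 and 5. Among the arms, miR-96-5p was the most abundant. The sources used here do not say whether reads counted on mature sequences were also offered to the hairpins, so hairpin counts may hold precursors, arm reads or both, and the order and the ratios are of counts only. Summed over WT libraries, the hairpin had 1.01 counts for each count on the 5p arm for mir-183, 0.192 for mir-182 and 0.0138 for mir-96, and summed over *Tet2/3* DKO libraries the ratios were 1.02, 0.194 and 0.0138. For mir-182 and mir-96, most reads counted on the 5p arm were thus not also counted on the hairpin. The ratios of hairpin to arm did not move with genotype beyond the spread between libraries. The log2 differences were 0.10 (SE 0.387) for mir-183, -0.02 (SE 0.440) for mir-182 and -0.49 (SE 0.684) for mir-96, with an exact permutation p of 0.804, 0.962 and 0.544 and 0.962 for each after Benjamini-Hochberg adjustment over these 3. The direction of each turned in at least 1 of the fits without 1 library.

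Ratios between arms within a library asked whether the 3 members differed in how they changed. The log2 ratio of miR-183-5p to miR-96-5p was -3.28 ± 0.604 in WT (SD, n = 6) and -2.58 ± 0.339 in *Tet2/3* DKO (SD, n = 7), a difference of 0.70 (SE 0.278, exact permutation p = 0.0181). That of miR-182-5p to miR-96-5p was -1.82 ± 0.671 and -1.14 ± 0.244, a difference of 0.68 (SE 0.289, exact permutation p = 0.0338). In both, 7 of 7 *Tet2/3* DKO libraries were above the WT mean, but after Benjamini-Hochberg adjustment over the 3 ratios both had p = 0.0507 (exact permutation), so a difference between these members was not past the threshold. Without WT replicate 3 both were past it, at 0.80 (adjusted exact p = 0.0170) and 0.89 (adjusted exact p = 0.00758). Without WT replicate 6 they were 0.80 (adjusted exact p = 0.0341) and 0.78 (adjusted exact p = 0.0455), and the first was also past it without WT replicate 2 (0.78) or *Tet2/3* DKO replicate 2 (0.81). In the other direction, the first was 0.49 without WT replicate 5 (adjusted exact p = 0.0985) and the second 0.55 without WT replicate 2 (adjusted exact p = 0.112).

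The log2 ratio of miR-183-5p to miR-182-5p differed by 0.02 (SE 0.275, exact permutation p = 0.951, 0.951 after adjustment), with a sign that turned when 2 counts were added in place of 0.5 (-0.04). In the makeup of the cluster, miR-96-5p held 71.2% ± 8.43 of the mature counts in WT libraries (SD, n = 6) and 60.4% ± 4.15 in *Tet2/3* DKO libraries (SD, n = 7). The share of miR-182-5p was 20.96% ± 7.78 and 27.5% ± 2.72. Summed over all mature members, the cluster had from 110.3 to 177.3 CPM in WT and from 155.4 to 270.1 CPM in *Tet2/3* DKO, and the sum of the hairpins went from 11.5 to 76.6 CPM and from 35.3 to 126.2 CPM.

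**Figure D3:**
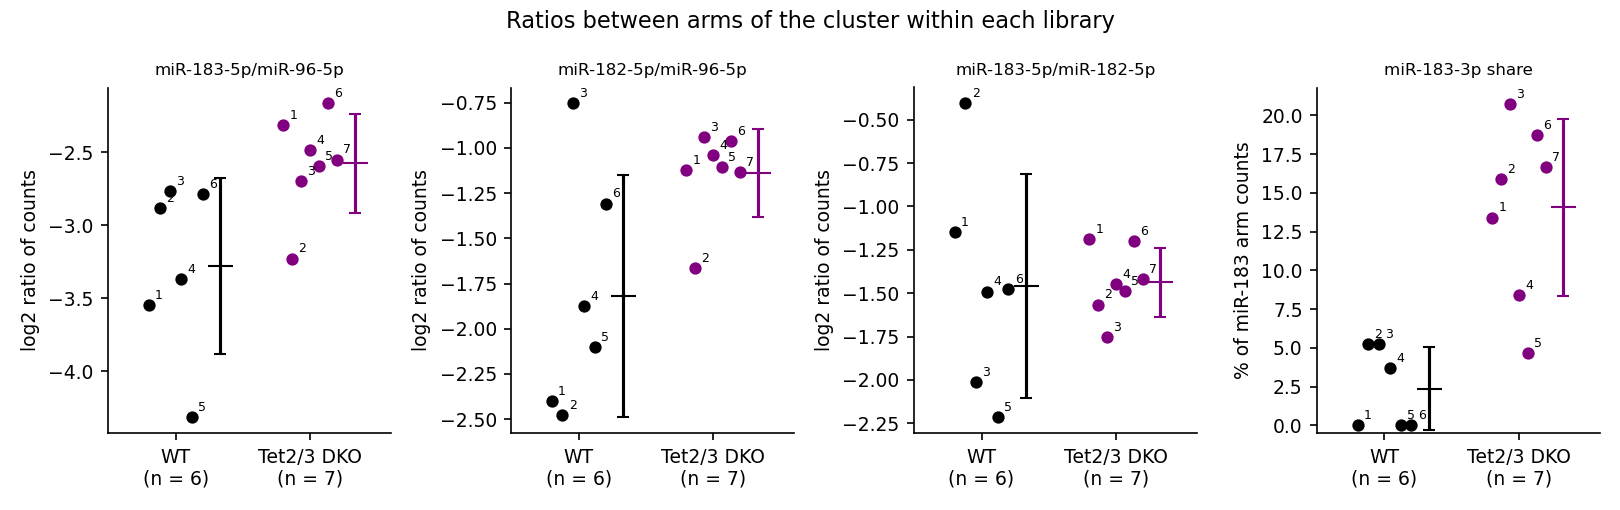
Log2 ratios of counts between the 5p arms (y axes of the first 3 panels, 0.5 counts added) and the share of miR-183-3p among counts of both mir-183 arms in percent (y axis of the last panel), by library, with replicate numbers and the mean ± SD. Both ratios to miR-96-5p are 0.70 and 0.68 higher in *Tet2/3* DKO on average with overlap, the ratio of miR-183-5p to miR-182-5p is centred alike, and the 3p share of all but 1 *Tet2/3* DKO library is above all WT libraries.

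**Figure D4:**
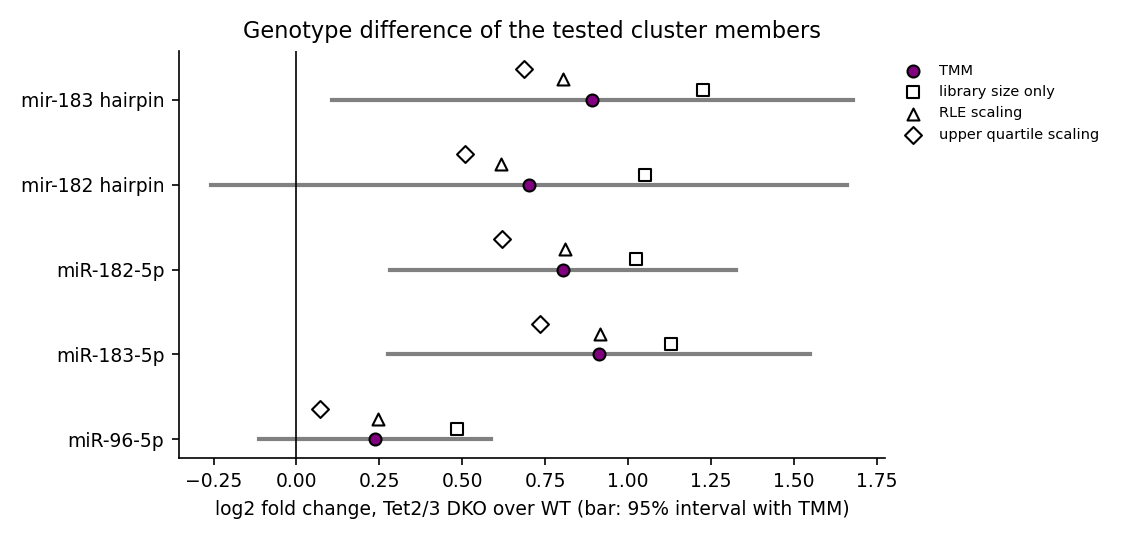
Log2 fold changes of the 5 tested members (x axis, *Tet2/3* DKO over WT) with TMM scaling and its 95% interval (purple point, grey bar) and with the other scalings (open symbols, set above it). All values are above 0, the intervals of miR-96-5p and the mir-182 hairpin include 0, and library size alone gives the highest value of each.

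Members were compared with each other by their deviations from the genotype mean of log2 CPM over the 13 libraries, as a description, since they share libraries and counting noise and are few. Pearson's r was 0.590 between miR-182-5p and miR-183-5p, 0.448 between miR-183-5p and miR-96-5p, and 0.209 between miR-182-5p and miR-96-5p. For the hairpins with enough counts and their own 5p arms, r was 0.629 for mir-183 and 0.650 for mir-182, where hairpin counts may hold arm reads. These values were not particular to a hairpin and its arm. Between the hairpins mir-183 and mir-182 r was 0.614, and the highest r of all pairs was 0.800, between the mir-96 hairpin and miR-183-3p, both of few counts. Among 386 other tested mature sequences, those most like the sum of the 3 5p arms in these deviations were miR-466f (r = 0.775), miR-466f-5p (r = 0.745) and miR-20a-3p (r = 0.737) over 13 libraries. As the highest of many values from few libraries, they may be this high by chance, which was not tested. The sum also follows miR-96-5p most, which held 71.2% of the cluster's mature counts in WT and 60.4% in *Tet2/3* DKO on average. For miR-466f, a member of a large repeated family whose copies may share reads, the log2 difference was 0.80 by edgeR (with adjusted p = 0.000555), and for miR-20a-3p, from the miR-17~92 cluster, it was -0.08 (adjusted p = 0.757 from edgeR).

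Other miRNAs linked to Th17 cells were read from the same fit. The lists here and that of *Foxo1* below were written with earlier results of these data known. Their counts are thus a description and not a test. Of 8 that are linked to more Th17 cells or function, 7 were tested, 5 were higher, none was lower and 2 did not pass, with a median log2 fold change of 0.46 where that of all tested mature sequences was -0.01. Over all of them 28.2% were higher and 27.4% lower. The count of higher ones was 2 with upper-quartile scaling and 7 with library size only. Those with the largest changes were miR-17-5p of the miR-17~92 cluster, from 5652 ± 685 to 10469 ± 1604 CPM (log2 fold change 0.89, SE 0.117), and miR-301a-3p, which targets the STAT3 inhibitor *Pias3*, from 355.8 ± 79.4 to 586.8 ± 134 CPM (0.72, SE 0.165). Both were past the threshold under the 4 scalings. Of 7 linked to fewer Th17 cells, 6 were tested, 2 were higher, 2 were lower and 2 did not pass, near the shares over all sequences, with a median of -0.12 that turned to 0.12 with library size only. Here miR-10a-5p went from 32.0 ± 12.9 to 7.00 ± 5.79 CPM (-2.19 in log2, SE 0.475), and miR-210-3p, which targets *Hif1a*, rose by 1.32 (SE 0.412), from 18.1 ± 8.26 to 45.3 ± 31.9 CPM, under the 4 scalings.

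The members are known for *Foxo1* as a target, and 8 other miRNAs known to target it were read in the same way. Of the 7 that were tested, 3 were lower, 1 was higher and 3 did not pass, with a median log2 fold change of -0.70. The share that passed is near the 55.6% of all tested mature sequences. The mean of miR-27b-3p was 23333 ± 2535 CPM (SD, n = 6) in WT and 9014 ± 1069 CPM (SD, n = 7) in *Tet2/3* DKO, a change of -1.37 in log2 (SE 0.106), while miR-425-5p went from 500.7 ± 56.4 to 665.9 ± 69.5 CPM (0.41, SE 0.115), a rise that upper-quartile scaling left short of the threshold (0.25). As miR-425-5p is also in the list linked to more Th17 cells, its rise is counted in both lists. The other falls were in miR-223-3p (-3.07, SE 0.777) and miR-486a-5p (-2.30, SE 0.321), which are also markers of myeloid and red cells.

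**Figure D5:**
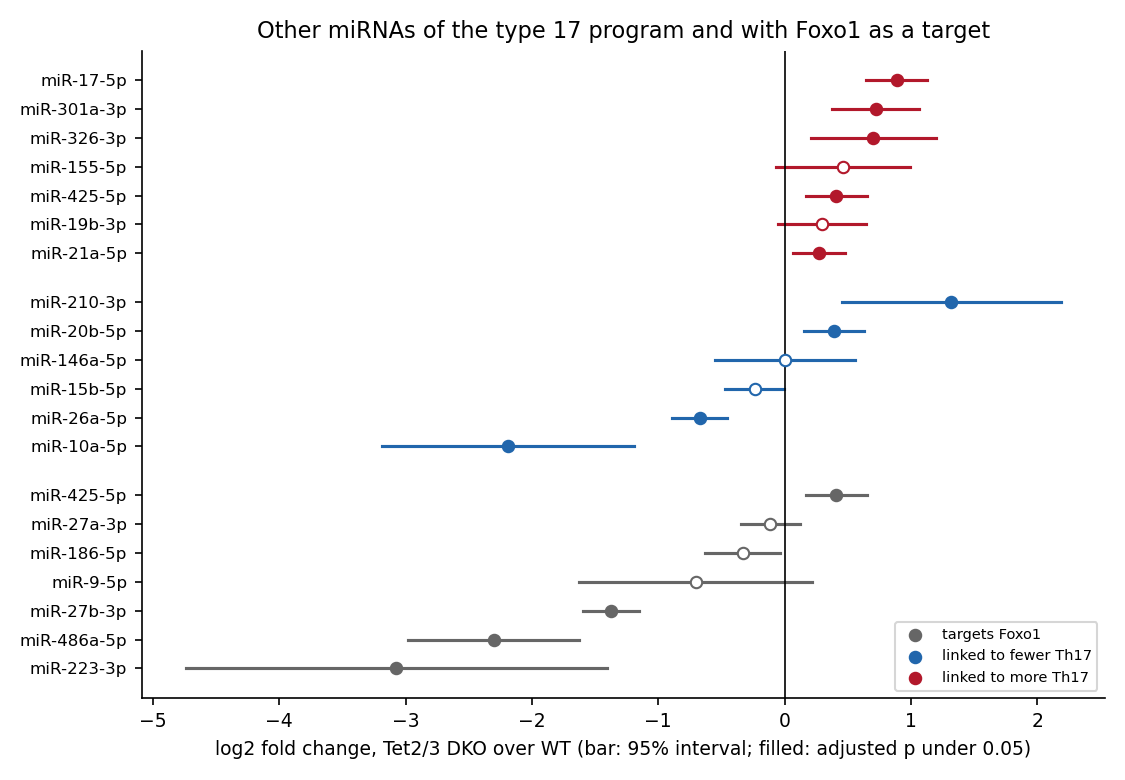
Log2 fold changes (x axis, *Tet2/3* DKO over WT) of tested miRNAs linked to more Th17 cells (red), to fewer Th17 cells (blue) or known to target *Foxo1* (grey), with 95% intervals. Filled points passed an adjusted p-value under 0.05, 5 of 7 in red (all above 0), 4 of 6 in blue (2 on each side of 0) and 4 of 7 in grey (3 below 0). The lists were written with earlier results of these data known, and miR-425-5p is drawn both in red and in grey.

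Markers of other cells were examined, since the cluster is also made in sensory cells and epithelia. Their counts are to be read against the 28.2% of all tested mature sequences that were higher and the 27.4% that were lower. The T lineage miRNAs of the list were abundant, between 172468 and 229792 CPM in sum in WT and between 148755 and 207239 CPM in *Tet2/3* DKO, with 2 of 5 lower and none higher. With library size alone 1 of these 5 was higher and 1 lower. Of 7 epithelial miRNAs 6 were tested, 3 were lower and none was higher in *Tet2/3* DKO (2 lower and 1 higher with library size alone), and the sum of the list was between 1270 and 1678 CPM in WT and between 812.3 and 1082 CPM in *Tet2/3* DKO. The most abundant of them, miR-200c-3p, went from 792.8 ± 164.5 to 429.0 ± 83.3 CPM (-0.89 in log2, SE 0.152). The least abundant, miR-205-5p, was counted 5 times in WT and 1 time in *Tet2/3* DKO. Of 5 sensory and neural miRNAs 3 were tested and 1, miR-211-5p, was higher (from 8.62 ± 4.81 to 60.4 ± 65.5 CPM), while miR-124-3p was counted 11 times in WT and 0 times in *Tet2/3* DKO and miR-204-5p 3 times and 1 time. Summed over the list, WT libraries ranged from 394.2 to 846.3 CPM, and those of *Tet2/3* DKO from 446.1 to 762.1. Most of this sum was miR-128-3p, with means of 511.4 ± 159.3 (SD, n = 6) and 491.1 ± 59.7 (SD, n = 7). Its log2 fold change of -0.06 did not pass (adjusted p = 0.765 from edgeR). The sum thus mainly follows miR-128-3p and does not show the rise of miR-211-5p.

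The lists of red cells, myeloid cells, hepatocytes and mesenchymal stroma were lower in *Tet2/3* DKO in each of their tested members (2 of 4, 1 of 2, 1 of 2 and 4 of 4 were tested). Their sums went from between 119.1 and 238.3 CPM in WT to between 14.1 and 68.5 CPM for red cells and from between 67.6 and 120.5 to between 12.02 and 22.6 CPM for stroma. Those of myeloid cells were between 2.31 and 92.5 CPM and between 0.633 and 6.57 CPM, and those of hepatocytes between 46.9 and 883.3 CPM and between 3.16 and 49.3 CPM. Of 2 endothelial miRNAs, miR-126a-3p was higher (0.69), and the sum was between 126.6 and 236.6 CPM in WT and between 196.3 and 335.0 CPM in *Tet2/3* DKO. The part of other cell types in the levels of the cluster was not tested.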

How the data were processed

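Small RNA of sorted thymic iNKT cells was measured in 6 WT and 7 *Tet2/3* DKO mice. The authors processed the reads with nf-core/smrnaseq at default parameters and deposited raw counts per hairpin and per mature sequence, not normalized. The submitters' processing notes name mm10. The aligner, the miRNA database release and the counting of reads that match several sequences are not given in the sources used here. Each column was assigned to a mouse through its genotype and number, and 0 columns were left unused. All libraries counted as separate replicates.

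From the deposited counts, features were kept by filterByExpr (minimum count 10, minimum total 15), scaled by TMM and tested with edgeR 4.0.16 (robust quasi-likelihood fit, genotype only, 13 libraries) in R 4.3.3, with an adjusted p under 0.05 as threshold. The SE is the size of the log2 fold change divided by the square root of F. Members under the filter were tested by exact permutation over 1716 divisions with a prior worth 2 counts, and ratios with 0.5 counts added, where the smallest p possible is 0.000583. The fits were tested on simulated data. No molecular identifiers are stated, so the limit set by a count of 0 covers counting error only. Alternatives were RLE, upper-quartile and library-size scaling, other count filters, replicate number as a block, DESeq2 1.42.0, other added counts and leaving out each library. Figures were drawn with matplotlib 3.10.9.

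The members, lists and tests were chosen with earlier results of these data known. The text names all members, from each list at most the 4 largest changes past the threshold, and the 3 most alike mature sequences. The share of miR-183-3p and the single marker miRNAs named (miR-200c-3p, miR-205-5p, miR-211-5p, miR-128-3p, miR-124-3p, miR-204-5p and miR-126a-3p) were chosen after their values were seen. Names of 1078 of the 1297 mature rows matched a RefSeq sequence, all members among them.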

Additional observations from a re-analysis of the deposited data

Results flagged for a closer look

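Each member, sum, ratio and share was checked in each genotype for a library far from the others, in 34 groups, where chance flags about 1 in 20. The values that stood apart were 3. WT replicate 5 had the lowest WT level of miR-183-5p, at 2.26 log2(CPM + 0.705) with the next at 3.47. WT replicate 1 had the highest WT level of miR-96-3p, at 1.37 with all others at -0.50, from 2 counts. *Tet2/3* DKO replicate 2 had the lowest log2 ratio of miR-182-5p to miR-96-5p in its genotype, at -1.66 with the next at -1.13.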

How the results depend on the processing

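Of 255 tested values recomputed under alternatives, 214 kept their direction and their side of the threshold, and 112 counts and sums with no test kept their direction or size within the limits set for them (hairpins called, for example, went from 181 to 288 in place of 209). The mir-183 hairpin was at 0.80 with RLE, 0.69 with upper-quartile scaling and 0.85 with DESeq2, short of the threshold each time, and miR-96-5p reached 0.49 and passed with library size only. The mir-96 hairpin turned to -0.066 with a prior worth 0.5 counts, and the ratio of miR-183-5p to miR-182-5p to -0.036 with 2 counts added. The calls of miR-182-5p and miR-183-5p passed under every scaling, filter and tool that tested them, from 0.62 to 1.02 and from 0.74 to 1.13. With upper-quartile scaling they only just passed (adjusted p = 0.0489 and 0.0478 from edgeR), and with TMM both were lost without WT replicate 5. With at least 10 counts in every library miR-183-5p and both hairpins were not tested.

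Without each library in turn, values lay from 0.74 to 1.23 for mir-183, from 0.46 to 1.08 for mir-182, from 0.61 to 1.03 for miR-182-5p, from 0.66 to 0.95 for miR-183-5p and from 0.10 to 0.23 for miR-96-5p, all mature sequences moving by a median of -0.09 to -0.01 in these fits. The 9 libraries without which mir-183 missed the threshold were WT replicates 1 (0.74), 2, 3, 5 and 6 and *Tet2/3* DKO replicates 1, 3, 4 and 6. The mir-96 hairpin lay from -0.10 to 0.35, miR-183-3p from 1.73 to 2.15 and miR-96-3p from 0.32 to 0.81. The ratios to miR-96-5p lay from 0.49 to 0.81 (miR-183-5p) and from 0.55 to 0.89 (miR-182-5p), and that of miR-183-5p to miR-182-5p from -0.13 to 0.23. Hairpin to arm ratios lay from -0.20 to 0.28 (mir-183), from -0.81 to 0.014 (mir-96) and from -0.33 to 0.19 (mir-182).

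The labels do not say what a shared number marks, and not every same-numbered pair of mice deviated together, so the numbers were not taken as a pairing. Their deviations correlated from 0.012 to 0.335 for mature sequences and from -0.050 to 0.342 for hairpins, and of 6 numbers only 5 and 6 correlated best with their own. With replicate number as a block the log2 fold changes were 0.93 (mir-183), 0.90 (miR-182-5p), 0.93 (miR-183-5p) and 0.23 (miR-96-5p), the calls were 227 in place of 223 mature sequences, and no call of a member changed. The ratios of miR-183-5p and miR-182-5p to miR-96-5p were 0.70 and 0.68 with the block (adjusted exact sign permutation p = 0.141 for both). At this depth WT libraries had at most 2 counts of either 3p arm, so their levels in WT cells are limits more than values.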
